A study of Mus musculus with 12 samples.

Results

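The 10 genes H2-K1, H2-D1, H2-Q4, H2-Q6, H2-Q7, H2-T23, B2m, Tap1, Tapbp and Nlrc5 of MHC class I antigen presentation were followed, out of 45796 genes in the deposited table, and were chosen by symbol. The first 6 encode class I heavy chains, B2m the light chain, Tap1 and Tapbp peptide-loading proteins, and Nlrc5 a transactivator of class I genes. A class I molecule is a heavy chain held together with beta-2 microglobulin and a short peptide. The transporter made in part by Tap1 carries peptides from the cytosol into the endoplasmic reticulum, where tapasin, the product of Tapbp, holds empty class I molecules beside it until a peptide binds. T cells, like most nucleated cells, carry these molecules on their surface, and class I genes are known as targets of interferon signalling, of NF-kB and of the transactivator NLRC5.

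The cells were gamma delta T cells positive for Vg4 and Vd4, and they were isolated from C57BL/6 mice out of the lymph nodes that drain the skin. The 4 groups of 3 libraries were NF-kB1-deficient mice given imiquimod cream, wild-type mice given imiquimod cream, NF-kB1-deficient mice given sham cream and wild-type mice given sham cream. Imiquimod activates Toll-like receptor signalling, and NF-kB1 is the subunit of NF-kB that is made as p105 and processed to p50. The labels give no age, allele or way of making the deficient strain, and do not say whether the replicates were separate animals. The p-values therefore reflect only variation among these libraries, largely as a spread pooled across genes, and that variation may be technical.

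Values are normalized read values on the linear scale, taken back from the log2 values as deposited. They come from a kit that reads 1 position near the end of a transcript, so levels of different genes can be set side by side without a length correction. The summed values ran from 31878 to 40618 per library, and the 3 wild-type imiquimod libraries had the highest sums (36846, 37487 and 40618). Steps in the low values put the depth at an estimated 20507 to 69454 reads, lowest in wild-type imiquimod replicate 3. It was 45957 to 67042 reads in NF-kB1-deficient imiquimod libraries and 20507 to 35611 in wild-type imiquimod libraries, without overlap. In sham libraries it was 27122 to 47413 reads in the deficient and 27959 to 69454 in the wild-type genotype. Under imiquimod, depth thus differs along with genotype, and its part in that comparison was not tested. The delta chain locus Tcrd was above 0 in all 12 libraries (14.2 to 76.8), while Cd3e and Cd3g were each listed at 0 in 5 libraries. Trdc, Tcrg-C1, Tcrg-C4 and Tcrg-V4 of the same gamma delta and T cell list were at 0 in every library. The gamma chain locus Tcrg, which is not on that list, was above 0 in all 12 libraries (11.5 to 64.4). Of the alpha beta T cell markers, the beta chain locus Tcrb was above 0 in all 12 libraries (57.4 to 103), Tcra in 11 and Cd8b1 in 8, while Trac, Trbc1, Trbc2 and Cd4 were at 0 in every library. That list summed to 84.6 to 90.3 in NF-kB1-deficient imiquimod libraries, 60.6 to 85.4 in wild-type imiquimod libraries, 88.0 to 109 in NF-kB1-deficient sham libraries and 78.6 to 110.05 in wild-type sham libraries. Of the B cell markers 9 of 10 were at 0 in every library, as were 6 of 6 neutrophil markers and 10 of 12 markers of macrophages, monocytes and dendritic cells. Of the class II and antigen-presenting cell markers 4 of 7 were at 0 in every library, and their sum was 0 to 12.3 in NF-kB1-deficient imiquimod libraries, 0 in each wild-type imiquimod library, 0 to 1.26 in NF-kB1-deficient sham libraries and 0 in each wild-type sham library. Nfkb1 itself stood at 5.41, 6.64 and 5.84 in NF-kB1-deficient imiquimod libraries, 7.34, 21.0 and 0 in wild-type imiquimod libraries, 8.82, 1.09 and 2.52 in NF-kB1-deficient sham libraries and 6.71, 4.38 and 1.24 in wild-type sham libraries. The genotypes overlapped under both creams. Since the altered stretch of the gene is not named in the labels and a 3' tag beyond it checks nothing, the genotype rests on the labels.

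The promoters of the 4 most abundant members are shown because they carry the letters by which class I genes are usually described. Each run has the 250 bases before and the 50 bases after the RefSeq start in GRCm38.p6, 5′ to 3′ on the gene's strand. H2-K1 lies at chr17:34000298-34000597 on the minus strand, H2-D1 at chr17:35262844-35263143, H2-Q7 at chr17:35438905-35439204 and B2m at chr2:122147437-122147736, the last 3 on the plus strand. Capitals mark matches to the NF-kB consensus, to the core of the interferon-stimulated response element (GAAA, any 2 bases, GAAA), to the Y box (CCAAT) and to the core of the cyclic AMP element (TGACG), searched on both strands.
H2-K1: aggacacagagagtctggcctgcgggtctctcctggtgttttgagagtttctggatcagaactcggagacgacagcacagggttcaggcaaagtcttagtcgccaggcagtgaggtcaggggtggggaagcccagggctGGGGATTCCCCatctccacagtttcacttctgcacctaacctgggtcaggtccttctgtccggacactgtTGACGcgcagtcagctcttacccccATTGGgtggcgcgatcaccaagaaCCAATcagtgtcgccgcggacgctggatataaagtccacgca
H2-D1: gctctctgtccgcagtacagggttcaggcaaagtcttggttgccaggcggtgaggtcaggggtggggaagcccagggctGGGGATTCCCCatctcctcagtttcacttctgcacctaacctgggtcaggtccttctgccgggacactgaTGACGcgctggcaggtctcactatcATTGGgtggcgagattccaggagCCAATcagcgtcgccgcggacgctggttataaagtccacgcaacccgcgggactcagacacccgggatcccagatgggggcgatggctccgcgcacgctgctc
H2-Q7: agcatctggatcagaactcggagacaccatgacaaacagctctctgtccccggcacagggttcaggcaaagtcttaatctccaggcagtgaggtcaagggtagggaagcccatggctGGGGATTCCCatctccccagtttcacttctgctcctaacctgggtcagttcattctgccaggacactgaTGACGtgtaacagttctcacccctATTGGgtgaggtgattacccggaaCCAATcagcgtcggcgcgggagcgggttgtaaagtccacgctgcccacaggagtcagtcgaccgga
B2m: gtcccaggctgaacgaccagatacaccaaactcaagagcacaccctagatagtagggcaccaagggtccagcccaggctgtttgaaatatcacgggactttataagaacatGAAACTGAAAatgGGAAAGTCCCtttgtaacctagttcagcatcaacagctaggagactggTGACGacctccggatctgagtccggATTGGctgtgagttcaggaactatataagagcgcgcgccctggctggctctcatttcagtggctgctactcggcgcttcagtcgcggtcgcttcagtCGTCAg

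An NF-kB match began 111 bases before the start in H2-K1, 171 bases before it in H2-D1, 133 bases before it in H2-Q7 and 126 bases before it in B2m. These distances depend on the start, which was that of the first window listed for each gene. For H2-K1, on the minus strand, it was 34000347, so the whole window lies inside the annotated gene (33996012 to 34000619). For H2-Q7 it was 35439155, while the annotated gene begins at 35439140. In H2-K1 and H2-D1 the capital run holds matches that overlap each other on both strands. B2m also held the interferon element core, from 139 to 130 bases before its start, next to the NF-kB match. Of the 10 members 9 had a window in the table, all but Nlrc5. The NF-kB consensus was matched in 6 of these 9 windows (H2-K1, H2-D1, H2-Q4, H2-Q6, H2-Q7 and B2m), against 8.46% of 32851 windows of the same length. The Y box was matched in 9 of 9, against 37.41% of all windows, and the cyclic AMP core in 6, against 20.81%. The interferon element core was matched in 2 of the 9, H2-T23 and B2m, against 3.44% of all windows. Only those exact letters were searched, so elements in variant letters were missed. The lack of a match in H2-K1, H2-D1 and H2-Q7 does not show that their windows hold no interferon element. The Q, K and D heavy chain windows are much alike in sequence, so their matches are not independent of each other. A match is a string of letters and not a bound site.

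The members spanned a wide range of levels. By the mean normalized value over 12 libraries, B2m stood first at 138 and H2-K1, a classical heavy chain, second at 126; they rank 9th and 11th among all genes. The other classical heavy chain of this strain, H2-D1, averaged 55.3, and H2-Q7, which encodes the lipid-anchored Qa-2 antigen, averaged 35.6. H2-Q4, a further heavy chain of the Q region, averaged 12.3, Tapbp 9.52 and Tap1 6.49. The remaining members, Nlrc5 at 3.71, H2-T23 at 1.36 and H2-Q6 at 0.850, fell short of the mean of 5 required for testing, so 7 of 10 members were tested. B2m and H2-K1 do not differ beyond their spread over the libraries (68.7 to 215 and 37.0 to 184), and the ranges of Tapbp (0 to 29.1) and Tap1 (1.95 to 13.0) overlap as well.

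**Figure D1:**
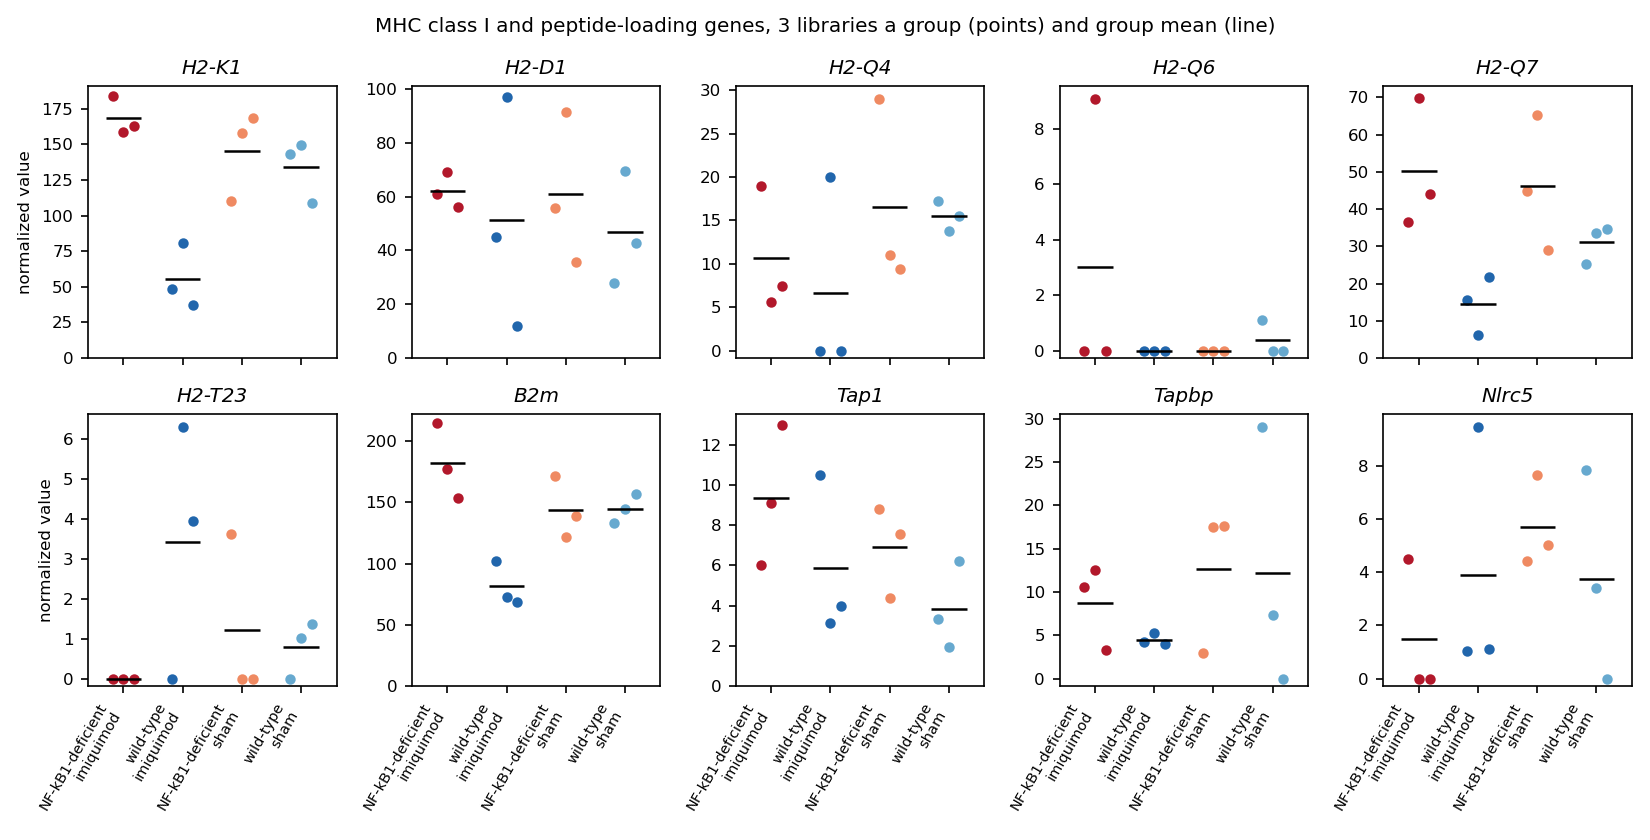
Normalized value (linear scale, own axis for each gene) of the 10 members in NF-kB1-deficient imiquimod, wild-type imiquimod, NF-kB1-deficient sham and wild-type sham libraries; points are the 3 libraries of a group and lines their mean. For H2-K1, B2m and H2-Q7 the 3 wild-type imiquimod points lie below every point of the other groups.

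Imiquimod in wild-type mice was compared with sham cream first, to see what the treatment did to class I transcripts. H2-K1 fell: it was at 48.2, 80.9 and 37.0 in wild-type imiquimod libraries, against 143, 150 and 108 in wild-type sham libraries. Every imiquimod library was below every sham library, and the group means were 55.4 ± 22.8 and 134 ± 22.2 (SD, n = 3 each). The log2 fold change was -1.32 ± 0.31 (SE; 95% interval -1.93 to -0.71; limma adjusted p = 0.00338). It stayed called whichever of the 12 libraries was left out, with a highest adjusted p of 0.0386 in limma. It was not called with no filter (adjusted p = 0.202) or without the trended and robust variance prior (adjusted p = 0.288).

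B2m and H2-Q7 were also lower in every wild-type imiquimod library, but neither passed the adjusted test. B2m, the light chain that all these heavy chains need, was at 102, 72.7 and 68.7 in wild-type imiquimod libraries and at 133, 144 and 157 in wild-type sham libraries. Its log2 fold change was -0.84 ± 0.29 (95% interval -1.42 to -0.27; limma adjusted p = 0.0849). H2-Q7 was at 15.7, 6.32 and 21.8 in wild-type imiquimod libraries and at 25.2, 33.7 and 34.8 in wild-type sham libraries, with a log2 fold change of -1.18 ± 0.53 (limma adjusted p = 0.181). In neither gene did the groups overlap. With each library set to the same total B2m was called (-1.003, limma adjusted p = 0.0195), and likewise when genes under a mean of 20 were left out (-0.84, adjusted p = 0.0374).

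H2-D1, the other classical heavy chain, varied widely within the treated group. It was at 45.1, 96.8 and 11.9 in wild-type imiquimod libraries, against 28.0, 69.5 and 42.9 in wild-type sham libraries. The groups overlapped, and replicate 2 of the imiquimod group was the highest of all 12 libraries while replicate 3 was the lowest. The log2 fold change was -0.21 ± 0.46, with a 95% interval of -1.12 to 0.71 (limma adjusted p = 0.843). It was -0.88 without wild-type imiquimod replicate 2 and 0.59 without wild-type imiquimod replicate 3, so it has no fixed sign. The ratio of H2-K1 to H2-D1 values was 1.07, 0.835 and 3.11 in wild-type imiquimod libraries and 5.13, 2.15 and 2.53 in wild-type sham libraries, again overlapping.

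H2-Q4 was listed at 0 in replicates 1 and 3 of wild-type imiquimod and at 20.001 in replicate 2, against 17.3, 13.8 and 15.5 in wild-type sham libraries. The groups overlapped because of that 1 library. The log2 fold change was -2.58 ± 1.04 and was not called (limma adjusted p = 0.136), and over the alternatives it ran from -4.73 with a pseudocount of 0.1 to -0.82 with a pseudocount of 10. Without wild-type imiquimod replicate 2 it was called (adjusted p = 0.0181), but both libraries left are then listed at 0, so no fold is given for that setting. Tap1 stood at 10.5, 3.16 and 3.96 in wild-type imiquimod libraries and at 3.34, 1.95 and 6.21 in wild-type sham libraries. Tapbp stood at 4.19, 5.26 and 3.96 in wild-type imiquimod libraries and at 29.1, 7.32 and 0 in wild-type sham libraries. Both loading genes overlapped between the groups. Their 95% intervals were wide, from -1.72 to 2.62 for Tap1 and from -2.38 to 1.96 for Tapbp on the log2 scale.

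In all, 1 of 7 tested members was called in wild type, H2-K1 with a lower value, against 3.25% of all tested genes called in either direction and 1.59% called lower. There was no overlap between the groups for 3 of the 7, all lower in imiquimod, against 10.8% of all tested genes that were lower without overlap. Log2 fold changes were negative in 6 of 7 members, against 51.9% of all tested genes. The median was -0.84, against -0.07 over all tested genes. Setting each library to the same total moves the median of all tested genes to -0.19 in this comparison, against -0.07 with the deposited scaling, and to 0.32 against 0.13 in the comparison of the genotypes under imiquimod.

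Beside the lower H2-K1, Tcrd fell too. It was at 14.2, 30.5 and 19.8 in wild-type imiquimod libraries and at 65.8, 68.7 and 76.8 in wild-type sham libraries, without overlap (log2 fold change -1.73 ± 0.43, limma adjusted p = 0.00905). The call held in 16 of 21 alternatives. The adjusted p was 0.0536 on leaving out wild-type sham replicate 3 and 0.0610 on leaving out wild-type imiquimod replicate 1. It was 0.299 with no filter, 0.175 without the trended and robust prior and 0.0543 in a fit of those groups alone. Tcrd was 1 of 4 tested gamma delta and T cell markers, and the other 3 overlapped between these groups and were not called. The gamma chain gene Tcrg-C2 had a log2 fold change of 0.0073 (limma adjusted p = 0.997), Cd247 one of -0.72 (0.797) and Cd3d one of -2.45 (0.154). Tcrb, at 82.3, 66.7 and 57.4 in wild-type imiquimod libraries and at 103, 88.6 and 73.0 in wild-type sham libraries, overlapped between these groups as well and was not called (log2 fold change -0.35, adjusted p = 0.606). Plasma cell markers summed to 6.93 to 21.5 in wild-type imiquimod libraries and 0 to 6.21 in wild-type sham libraries. Their sum was 2.25 to 21.7 in NF-kB1-deficient imiquimod libraries and 0 in each NF-kB1-deficient sham library. In the wild-type imiquimod group 3 of these markers were above 0, Xbp1, Prdm1 and Sdc1. Jchain and Mzb1 were each above 0 in 1 library, of the NF-kB1-deficient imiquimod group, and Tnfrsf17 was at 0 in every library. In RNA of whole samples, fewer cells of a type and less RNA per cell cannot be told apart, and the part of cell makeup in the lower H2-K1 was not tested.

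**Figure D2:**
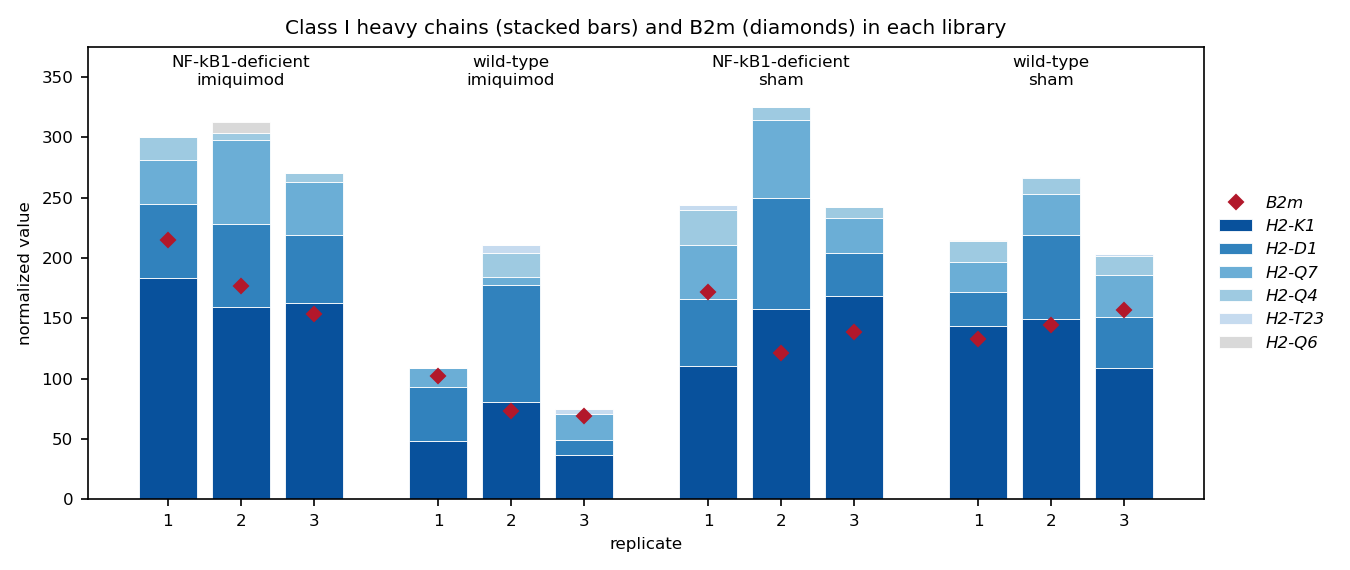
Normalized value (linear scale) of the 6 heavy chain genes, stacked as bars, and of B2m, as diamonds, in each of the 12 libraries. The summed heavy chains lie between 271 and 313 in NF-kB1-deficient imiquimod libraries, 74.6 and 210 in wild-type imiquimod libraries, 243 and 326 in NF-kB1-deficient sham libraries and 203 and 268 in wild-type sham libraries.

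The comparison of both genotypes under imiquimod asked whether loss of NF-kB1 changes class I transcripts in treated mice. It shares the wild-type imiquimod libraries with the comparison above, so the 2 are not independent. H2-K1, B2m and H2-Q7 were higher in NF-kB1-deficient cells, and all 3 passed the test. H2-K1 was at 184, 159 and 163 in NF-kB1-deficient imiquimod libraries, against 48.2, 80.9 and 37.0 in wild-type imiquimod libraries. The group means were 168 ± 13.2 and 55.4 ± 22.8 (SD, n = 3 each), with no overlap. The log2 fold change of 1.66 ± 0.31 (95% interval 1.05 to 2.27) had a limma adjusted p of 0.000136. The call held without any 1 of the 12 libraries, where the fold ran from 1.41 to 1.97 and the highest adjusted p was 0.00589. Without the trended and robust prior it was lost (adjusted p = 0.299).

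B2m was at 215, 177 and 154 in NF-kB1-deficient imiquimod libraries, against 102, 72.7 and 68.7 in wild-type imiquimod libraries. The lowest deficient library was above the highest wild-type one, and the means were 182 ± 30.8 and 81.3 ± 18.4. The log2 fold change was 1.16 ± 0.29 (95% interval 0.58 to 1.74; limma adjusted p = 0.0152). It lost its call without NF-kB1-deficient imiquimod replicate 1 (adjusted p = 0.159) or replicate 2 (adjusted p = 0.125), with no filter (0.540) and without the trended and robust prior (0.444).

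H2-Q7 was at 36.6, 69.9 and 44.1 in NF-kB1-deficient imiquimod libraries, against 15.7, 6.32 and 21.8 in wild-type imiquimod libraries, again with no overlap. Its log2 fold change was 1.81 ± 0.53 (95% interval 0.76 to 2.86) and its limma adjusted p of 0.0486 lay just under the threshold of 0.05. The call held in 7 of 21 alternatives and was lost on leaving out any of 9 libraries: each of the 3 NF-kB1-deficient imiquimod libraries, wild-type imiquimod replicates 1 and 2, NF-kB1-deficient sham replicates 1 and 2, and wild-type sham replicates 2 and 3. The adjusted p without 1 of them ran from 0.0511 (wild-type sham replicate 3) to 0.379 (NF-kB1-deficient imiquimod replicate 2), and the fold stayed between 1.30 and 2.16 over all alternatives.

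The other tested members were not called between genotypes under imiquimod. H2-D1 was at 61.0, 69.2 and 56.1 in NF-kB1-deficient imiquimod libraries, within the range of the wild-type imiquimod libraries (45.1, 96.8 and 11.9). Its log2 fold change of 0.70 ± 0.46 had a 95% interval of -0.22 to 1.61 (limma adjusted p = 0.518) and was -0.095 without wild-type imiquimod replicate 3. H2-Q4 was at 18.9, 5.59 and 7.46 in NF-kB1-deficient imiquimod libraries, against 0, 20.001 and 0 in wild-type imiquimod libraries (1.91 ± 1.04, limma adjusted p = 0.396). The groups of both genes overlapped. Tap1 was at 6.01, 9.08 and 13.0 in NF-kB1-deficient imiquimod libraries, against 10.5, 3.16 and 3.96 in wild-type imiquimod libraries, which overlapped. Tapbp was at 10.5, 12.6 and 3.24 in NF-kB1-deficient imiquimod libraries, against 4.19, 5.26 and 3.96 in wild-type imiquimod libraries, which overlapped too. The intervals of Tap1 and Tapbp, -1.48 to 2.85 and -1.49 to 2.85 on the log2 scale, leave room for changes of either sign.

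Between genotypes under imiquimod 3 of 7 tested members were called, all higher in NF-kB1-deficient cells, against 1.78% of all tested genes called in either direction and 1.27% called higher. The same 3 had groups that did not overlap, against 10.8% of all tested genes that were higher without overlap. All 7 log2 fold changes were positive, while 46.3% of all tested genes had a negative one, and the members' median was 1.16, against 0.13 over all tested genes. The member values together took 1.33% to 1.60% of the summed value of a library in NF-kB1-deficient imiquimod cells and 0.375% to 0.803% in wild-type imiquimod cells. Tcrd was at 62.8, 53.5 and 58.9 in NF-kB1-deficient imiquimod libraries and at 14.2, 30.5 and 19.8 in wild-type imiquimod libraries, a log2 difference of 1.46 ± 0.43 that was not called (limma adjusted p = 0.0510). The other 3 tested markers of that list overlapped and were not called, with log2 differences of -0.53 for Tcrg-C2, -1.02 for Cd247 and 2.67 for Cd3d, so 2 of 4 were positive and 2 negative. The part of these markers in the higher class I values was not tested, nor was that of the greater depth of the NF-kB1-deficient imiquimod libraries.

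**Figure D3:**
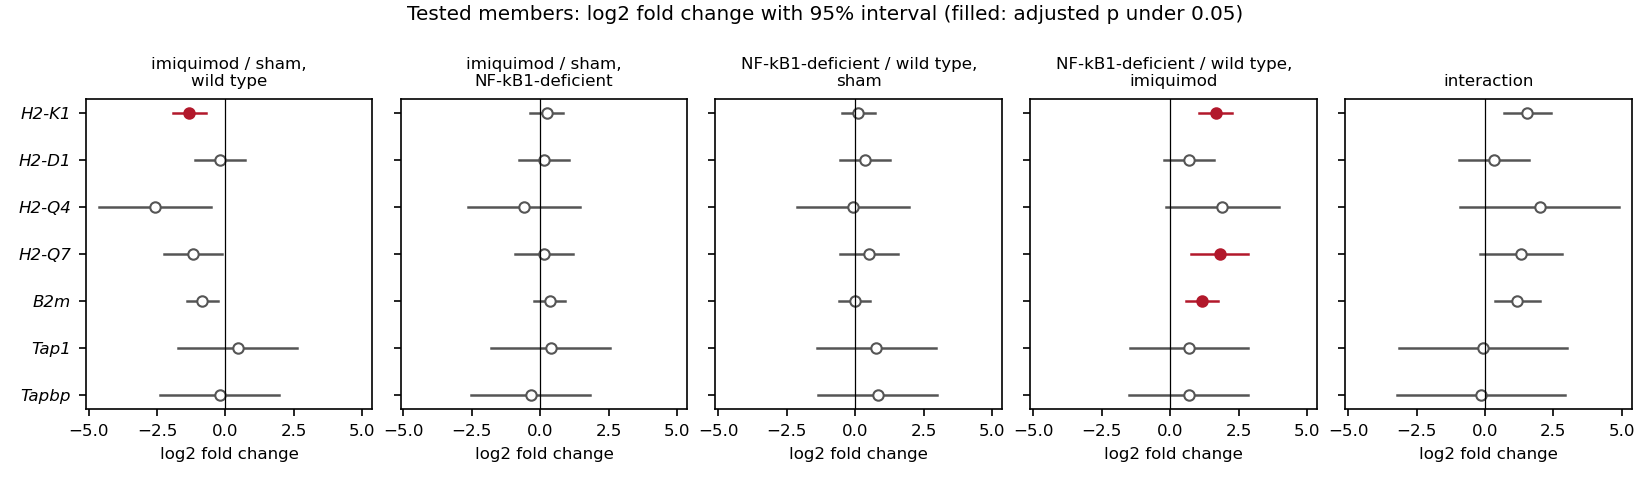
Log2 fold change (points) with 95% interval (lines) of the 7 tested members in the 5 comparisons; filled red points have a limma adjusted p under 0.05. H2-K1 is filled in wild-type imiquimod against sham (-1.32), and H2-K1 (1.66), H2-Q7 (1.81) and B2m (1.16) are filled in NF-kB1-deficient against wild type under imiquimod.

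In NF-kB1-deficient mice no member was called between imiquimod and sham cream. H2-K1 was at 184, 159 and 163 in NF-kB1-deficient imiquimod libraries, against 110, 158 and 169 in NF-kB1-deficient sham libraries. The groups overlapped, and the log2 fold change was 0.23 ± 0.31 with a 95% interval of -0.38 to 0.84. B2m was at 215, 177 and 154 in NF-kB1-deficient imiquimod libraries and at 172, 121 and 139 in NF-kB1-deficient sham libraries, also overlapping (0.34 ± 0.29, interval -0.24 to 0.91). H2-Q7 was at 36.6, 69.9 and 44.1 in NF-kB1-deficient imiquimod libraries and at 44.8, 65.1 and 28.9 in NF-kB1-deficient sham libraries, with an interval of -0.92 to 1.19. In limma 0 of 7 members were called, each with an adjusted p of 0.996, and 0 had an unadjusted p under 0.05; of all tested genes 0% were called and 3.37% had an unadjusted p under 0.05. The groups of 0 members were free of overlap, against 11.7% of all tested genes. The median log2 fold change was 0.13 over the members and 0.14 over all tested genes.

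Under sham cream the genotypes were not distinguished by the members either. H2-K1 stood at 110, 158 and 169 in NF-kB1-deficient sham libraries, against 143, 150 and 108 in wild-type sham libraries, a log2 difference of 0.11 (95% interval -0.50 to 0.72; limma adjusted p = 0.979). B2m stood at 172, 121 and 139 in NF-kB1-deficient sham libraries and at 133, 144 and 157 in wild-type sham libraries (-0.02, interval -0.60 to 0.56). H2-D1 stood at 55.9, 91.6 and 35.7 in NF-kB1-deficient sham libraries and at 28.0, 69.5 and 42.9 in wild-type sham libraries (0.37, interval -0.54 to 1.28). In each of these genes the groups overlapped. Tapbp was spread widely, at 2.94, 17.5 and 17.6 in NF-kB1-deficient sham libraries and at 29.1, 7.32 and 0 in wild-type sham libraries. In limma 0 of 7 members were called and 0 had an unadjusted p under 0.05, against 0% and 6.11% of all tested genes, and 0 had groups without overlap, against 9.36%. The median was 0.37 over the members and -0.02 over all tested genes.

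Whether imiquimod acted differently in the genotypes was tested as the interaction, the imiquimod response in NF-kB1-deficient cells minus that in wild-type cells. H2-K1 had an interaction of 1.55 ± 0.44 on the log2 scale (95% interval 0.69 to 2.41), which did not pass the adjusted test (limma adjusted p = 0.0869). It was called without wild-type imiquimod replicate 2 (1.86, adjusted p = 0.00703), with equal library totals (1.74, adjusted p = 0.0171) and among genes with a mean of at least 20 (adjusted p = 0.0347). B2m had an interaction of 1.18 ± 0.41 (interval 0.37 to 1.995; limma adjusted p = 0.257), and H2-Q7 one of 1.31 (interval -0.17 to 2.80; limma adjusted p = 0.554). In limma 0 of 7 members were called and 2 had an unadjusted p under 0.05, against 0.446% and 10.8% of all tested genes. The difference between the genotypes in their response was therefore not called for any member as tested.

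The members that could not be tested were sparse. H2-T23 encodes Qa-1, which shows peptides to CD94-NKG2 receptors. It was listed at 0 in all 3 NF-kB1-deficient imiquimod libraries, at 0, 6.32 and 3.96 in wild-type imiquimod libraries, at 3.62, 0 and 0 in NF-kB1-deficient sham libraries and at 0, 1.02 and 1.38 in wild-type sham libraries. Nlrc5, the transactivator of class I genes, was at 4.51, 0 and 0 in NF-kB1-deficient imiquimod libraries, 1.05, 9.47 and 1.12 in wild-type imiquimod libraries, 4.41, 7.66 and 5.03 in NF-kB1-deficient sham libraries and 7.83, 3.42 and 0 in wild-type sham libraries. H2-Q6, a near copy of H2-Q7, was above 0 in 2 libraries, at 9.08 in NF-kB1-deficient imiquimod replicate 2 and at 1.12 in wild-type sham replicate 1. In each of these genes the groups overlapped. A value of 0 can hide 1 read in 5 libraries, among them the 3 NF-kB1-deficient imiquimod libraries, and up to 2 reads in wild-type sham replicate 2.

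Reads that fit more than 1 gene, such as those of near-identical heavy chains, may be divided between genes or dropped in counting. In the last 300 bases of the transcripts, 58.6% of 50-base stretches of H2-Q6 also occur in transcripts of other genes, H2-Q7 first among them. The share was 50.6% for H2-T23, 45.4% for H2-Q4 and 17.1% for H2-D1, spread over 75, 52 and 80 other genes. Among those sharing most were genes that are not heavy chains. They included Rab33b and Hook2 for H2-T23, Olfr1238 and Olfr552 for H2-Q4, and Adsl and Kcnk4 for H2-D1. For H2-K1 the share was 0.797%, and the other gene is H2-D1. It was 0 for H2-Q7, B2m, Tap1, Tapbp and Nlrc5. Only the end of 1 transcript per gene, the longest protein-coding one considered, was scored. Since H2-Q6 stretches occur in H2-Q7 transcripts, the 0 for H2-Q7 does not show that all its reads are its own. Values of H2-Q4, H2-Q6 and H2-T23 are uncertain because of such shared stretches, and those of H2-D1 less so. How far those of H2-Q7 are affected was not tested.

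Among themselves the members varied together in part. Across the 12 libraries, on the log2 scale, the Pearson correlation with B2m was 0.781 for H2-K1, 0.717 for H2-Q7 and 0.331 for H2-D1. H2-K1 and H2-Q4 had 0.733, H2-K1 and H2-D1 0.526, and H2-D1 and H2-Q7 0.135. Tap1 and Tapbp correlated at -0.254 with each other and at 0.0534 and 0.412 with H2-K1. These correlations describe libraries that share their depth, their scaling and the 4 group means. H2-K1 made up 50.8% to 61.2% of the summed heavy chain value in NF-kB1-deficient imiquimod libraries, 38.4% to 49.6% in wild-type imiquimod libraries, 45.3% to 69.5% in NF-kB1-deficient sham libraries and 53.4% to 66.7% in wild-type sham libraries.

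The genes whose values ran closest to H2-K1 over the 12 libraries were Vsir, an inhibitory receptor of T cells (Pearson correlation 0.946), Bcl2, which restrains apoptosis (0.920), and Gm4070 (0.903). Closest to H2-D1 were Rtf1, a factor of transcription elongation (0.859), Itgal, the alpha chain of the integrin LFA-1 (0.822), and 1110004F10Rik (0.822). Closest to B2m were Acss1, a mitochondrial acetyl-CoA synthetase (0.847), Rbm26 (0.845) and Ms4a4b (0.840). No gene stood in more than 1 of these sets of 3. They are the highest of 1571 tested genes and share the libraries' depth.

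The wider pathway was read from lists of related genes. Of the 16 tested genes of the interferon response 16 had negative log2 fold changes in wild-type imiquimod against wild-type sham libraries, with a median of -1.59 against -0.07 over all tested genes; the median was -1.46 without Isg15 and Isg20, which were listed at 0 in every wild-type imiquimod library. Of the 16 genes 2 were called, both lower. Sp100, a component of nuclear bodies, was at 1.05, 0 and 1.98 in wild-type imiquimod libraries, against 17.9, 17.1 and 72.0 in wild-type sham libraries. The groups did not overlap, and the log2 fold change was -4.00 ± 0.93 (limma adjusted p = 0.00338). The adjusted p was 0.101 without wild-type sham replicate 3 and 0.0543 in a fit of those groups alone. The wild-type imiquimod values are near 0, so the fold depends on the pseudocount and ran from -5.50 to -1.85 over the alternatives. Ifi203, an interferon-inducible gene, was at 3.49, 2.11 and 16.8 in wild-type imiquimod libraries, against 26.3, 19.8 and 77.6 in wild-type sham libraries (-2.49 ± 0.76, limma adjusted p = 0.0423). It was called in 10 of 21 alternatives and lost its call without any of 6 libraries, wild-type sham replicate 1 or 3, NF-kB1-deficient sham replicate 1, wild-type imiquimod replicate 1 or 2, or NF-kB1-deficient imiquimod replicate 2 (adjusted p 0.0540 to 0.270).

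Between genotypes under imiquimod the same list had positive log2 fold changes in 16 of 16 tested genes, with a median of 2.06 (also 2.06 without Isg15 and Isg20) against 0.13 over all tested genes, and 1 was called. That gene was Sp100, at 17.5, 26.2 and 11.98 in NF-kB1-deficient imiquimod libraries, against 1.05, 0 and 1.98 in wild-type imiquimod libraries (3.36 ± 0.93, limma adjusted p = 0.0339). The call held in 9 of 20 alternatives and was lost without any of 7 libraries, each of the NF-kB1-deficient imiquimod libraries, wild-type imiquimod replicate 2, NF-kB1-deficient sham replicate 1 or wild-type sham replicate 2 or 3 (adjusted p 0.0511 to 0.319). The fold of Sp100 depends on the pseudocount here too and ran from 1.35 to 4.84 over the alternatives. In the comparison of imiquimod with sham in NF-kB1-deficient mice 11 of 16 were positive (median 0.30), and between genotypes under sham 8 of 16 (median 0.21) with 0 called in either (lowest limma adjusted p 0.956 and 0.947). The list was chosen with earlier results of these data known, so its direction is no independent evidence.

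Of the transcription factors known to act on class I genes 7 of 17 were tested. Irf1, an interferon-induced activator of class I promoters, was at 31.5, 21.7 and 16.2 in NF-kB1-deficient imiquimod libraries, 2.10, 7.37 and 1.98 in wild-type imiquimod libraries, 28.7, 16.4 and 10.07 in NF-kB1-deficient sham libraries and 20.1, 19.0 and 30.4 in wild-type sham libraries. Its wild-type imiquimod libraries lay below those of each other group, but it was called neither against wild-type sham (-2.48 ± 0.82, limma adjusted p = 0.0720) nor between genotypes under imiquimod (2.45 ± 0.82, limma adjusted p = 0.107); it was named after its values were seen. Over the list 7 of 7 log2 fold changes were positive between genotypes under imiquimod (median 0.97, or 0.89 without Irf9, listed at 0 in wild-type imiquimod). In wild-type imiquimod against sham 6 of 7 were negative (median -1.97, or -1.52 without Irf9) and 0 were called.

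Among the genes of peptide transport, trimming and folding most log2 fold changes in wild-type mice had the opposite sign to that of H2-K1. Of 14 tested genes 11 had positive log2 fold changes in imiquimod against sham, with a median of 1.41, or 1.35 without Calr, against -0.07 over all tested genes, and 1 was called. Calr, the chaperone calreticulin of the loading complex, was at 43.5, 28.6 and 21.8 in wild-type imiquimod libraries and listed at 0 in each wild-type sham library (limma adjusted p = 0.00284), so no fold is given. It was called in 20 of 20 alternatives. In the deficient genotype Calr was at 11.3, 2.79 and 15.4 in imiquimod libraries and at 8.09, 0 and 12.7 in sham libraries. Pdia3, the disulfide isomerase of the loading complex, was at 49.3, 35.2 and 18.8 in wild-type imiquimod libraries, against 4.47, 5.86 and 0 in wild-type sham libraries (3.30 ± 1.05, limma adjusted p = 0.0554). Tap2, the partner of Tap1, was at 0, 25.3 and 0 in wild-type imiquimod libraries and at 12.3, 8.79 and 12.4 in wild-type sham libraries (-2.02 ± 1.004, limma adjusted p = 0.240). The groups of Pdia3 did not overlap while those of Tap2 did, and both genes were named after their values were seen. Between genotypes under imiquimod 3 of 14 were positive and 11 negative, with a median of -0.75 against 0.13 over all tested genes, and 0 were called. In the other 2 comparisons 7 of 14 were positive and 7 negative in each, and 0 were called.

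**Figure D4:**
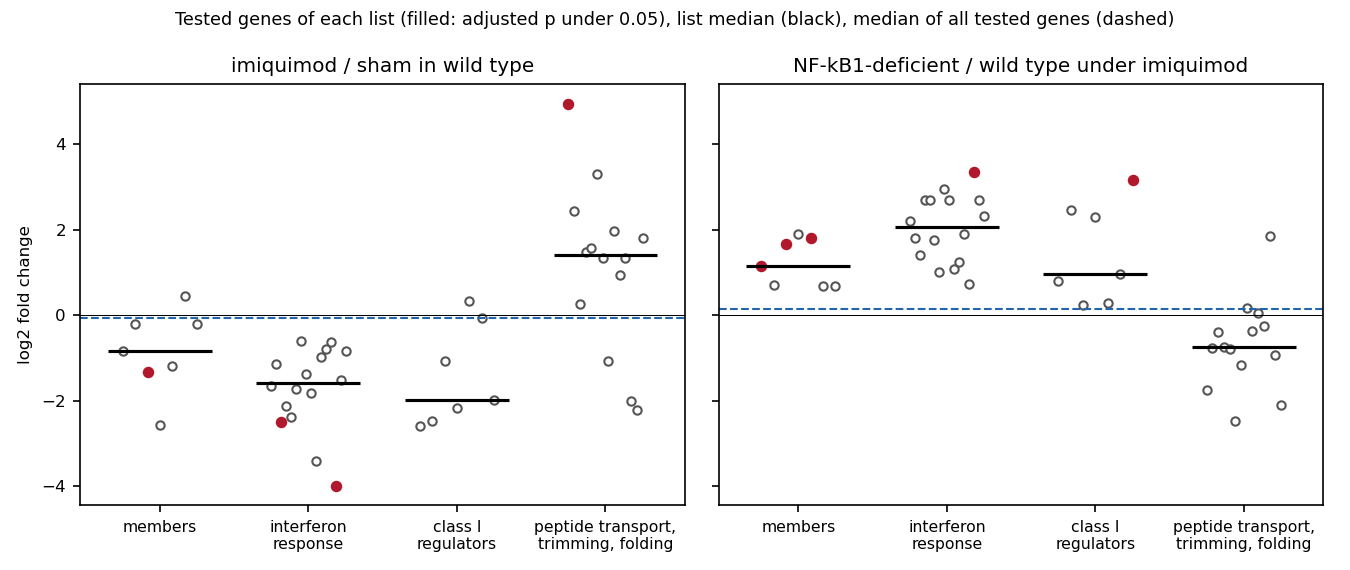
Log2 fold change of every tested gene of 4 lists (points, filled red at a limma adjusted p under 0.05), the list median (black line) and the median of all tested genes (dashed line), for wild-type imiquimod against wild-type sham on the left and NF-kB1-deficient against wild type under imiquimod on the right. On the left the medians are -0.84 for the members, -1.59 for interferon response, -1.97 for regulators and 1.41 for transport, trimming and folding; points of genes listed at 0 in a group, such as Calr, depend on the pseudocount.

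The immunoproteasome, which cuts peptides for class I, was mostly under the filter. Psmb8 and Pomp were 2 tested of 6 and 0 were called in any comparison. Psmb8, a catalytic subunit, had its lowest p between genotypes under sham, at 15.4, 31.8 and 40.2 in NF-kB1-deficient sham libraries against 8.94, 13.7 and 9.94 in wild-type sham libraries (log2 fold change 1.27, limma adjusted p = 0.914). These 2 groups did not overlap. Under imiquimod Psmb8 was at 20.03, 11.9 and 13.6 in NF-kB1-deficient libraries and at 23.1, 10.5 and 11.9 in wild-type libraries, which overlapped.

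Other class I and class I-like heavy chains were sparse. Of 21 such genes 18 had a line, 0 passed the filter and 10 were listed at 0 in all 12 libraries; H2-Q8, H2-Q9 and H2-T9 were not analysed here. Their summed value was 4.54 to 21.3 in NF-kB1-deficient imiquimod libraries, 0 in each wild-type imiquimod library, 0 to 30.1 in NF-kB1-deficient sham libraries and 6.21 to 10.7 in wild-type sham libraries. H2-M3, which presents formylated peptides, was at 4.01, 1.40 and 4.54 in NF-kB1-deficient imiquimod libraries, 0, 0 and 0 in wild-type imiquimod libraries, 7.35, 0 and 0 in NF-kB1-deficient sham libraries and 6.71, 2.44 and 0 in wild-type sham libraries. Receptors that read class I were as sparse, with 0 of 17 tested and 9 listed at 0 in every library. Klrd1, which encodes the CD94 chain that pairs with NKG2 to read Qa-1, was at 8.51, 5.59 and 0 in NF-kB1-deficient imiquimod libraries, 0, 0 and 0 in wild-type imiquimod libraries, 7.35, 7.66 and 10.07 in NF-kB1-deficient sham libraries and 2.24, 12.2 and 3.73 in wild-type sham libraries. These genes were not tested, and H2-M3 and Klrd1 were named after their values were seen.

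The members lie on 3 chromosomes of GRCm38. Most lie in the major histocompatibility complex on chromosome 17, from Tapbp (33919478 to 33929290) and H2-K1 (Entrez 14972; 33996012 to 34000619) through Tap1 (34187556 to 34197225) and H2-D1 (Entrez 14964; 35263094 to 35267497) to H2-Q4 (35379617 to 35384674), H2-Q6 (35424850 to 35430055), H2-Q7 (Entrez 15018; 35439140 to 35443773) and H2-T23 (36029977 to 36032701). B2m (Entrez 12010) lies on chromosome 2 at 122147687 to 122153082 and Nlrc5 on chromosome 8 at 94434335 to 94527272. All are annotated as protein coding. Of the 3 genes called between genotypes under imiquimod, H2-K1 and H2-Q7 lie in the complex and B2m lies outside it.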

How the data were processed

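RNA was extracted with Trizol and sequenced from QuantSeq 3' FWD libraries, per the labels' protocols; per the submitters' processing notes reads were placed on mm10. Which aligner, counter, annotation and normalization the authors used is not stated in what was available here. The authors deposited log2 normalized read values for 45796 genes in 12 libraries. All were converted to linear normalized values, with 0 kept as listed at 0. The linear values hold 0 entries between 0 and 1. Columns were matched to samples by title, and 0 of 66 pairs of libraries were identical. Among values of under 20 estimated reads, 71.0% to 80.2% were whole to within 0.01 read, so read numbers were not recovered and count tests were left out.

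Tests used limma 3.58.1 (R 4.3.3, data.table package version 1.17.8) on log2(normalized value + 1), a scale that understates changes of low genes. The 1571 genes with a mean of at least 5 entered 1 fit of all 12 libraries, with trend and robust set (8 residual and a median of 145 prior degrees of freedom), so each test rests largely on a spread pooled across genes. Benjamini-Hochberg adjustment ran over these 1571 genes in each of the 5 comparisons; called means an adjusted p under 0.05. Log2 fold changes had a median SE of 1.12. Lists are described by counts and medians. The rule names the 10 members, every list gene called in any comparison and otherwise the list's lowest p; other list genes were named after their values were seen. A gene that the rule takes is not reported here. The members and lists were chosen with earlier results of these data known. Alternatives changed the pseudocount, the filter, the scaling, the variance prior, the libraries fitted and the replicate block; a test of the deposited log2 values and the following of called list genes were added after seeing the data. Promoter windows are from RefSeq, GRCm38.p6, for 9 of 10 members. Gene positions are from RefSeq, GRCm38.p6, and transcript ends from the GENCODE annotation of GRCm38. Plots used matplotlib 3.10.9.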

Additional observations from a re-analysis of the deposited data

How the results depend on the processing

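H2-K1 was called in 19 of 21 alternatives in wild-type imiquimod against sham and in 20 of 21 between genotypes under imiquimod, where B2m was called in 17 and H2-Q7 in 7. Depth limits the low genes: at 20507 to 69454 estimated reads the intervals of Tap1 and Tapbp span both signs. No cause of a change below was tested, other than fewer samples or another number of genes tested.

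In wild type, 51 genes and 1 member were called. With a pseudocount of 0.1 there were 26 genes, with no filter 11 genes and 0 members, without trend or robust 18 and 0, and in a fit of those groups alone 28 genes. Members called were 2 (H2-K1 and B2m) with a filter at 20 and with equal totals. In NF-kB1-deficient imiquimod against sham, the groups alone gave 1 gene where 0 were called with all libraries in the fit. Between genotypes under imiquimod, 28 genes and 3 members were called. There were 18 genes with a pseudocount of 0.1, 3 genes and 1 member with no filter, 0 and 0 without trend or robust and 17 genes in the groups alone. For the interaction, 7 genes and 0 members were called, against 13 genes and 1 member with a filter at 20, 1 gene with no filter, 1 member with equal totals and 0 genes without trend or robust.

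Leaving out 1 library gave 23 to 72 genes and 1 to 2 members in wild type, with the low without wild-type sham replicate 3 and the high without wild-type imiquimod replicate 2. It gave 0 to 0 genes and members in the deficient genotype, and 0 to 1 genes and 0 to 0 members between genotypes under sham. Between genotypes under imiquimod it gave 4 genes (without NF-kB1-deficient imiquimod replicate 2) to 42 (without wild-type imiquimod replicate 2) and 1 to 3 members. For the interaction it gave 2 to 12 genes and 0 to 1 members.

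Signs turned in members that were not called. Tapbp was at 0.70 in wild type with a pseudocount of 0.1, and B2m at 0.0078 between genotypes under sham with equal totals. In the interaction Tap1 was at 0.0068 and Tapbp at 0.16 with a pseudocount of 10, at 0.078 and 0.018 with equal totals, and Tapbp at 0.067 on the deposited log2 values. Without 1 library, the ranges that cross 0 were, in wild type, -0.88 to 0.59 for H2-D1 and -1.54 to 0.92 for Tapbp. In the deficient genotype they were -0.21 to 0.46 for H2-D1, -0.16 to 0.41 for H2-Q7 and -1.09 to 0.17 for Tapbp. Between genotypes under sham they were -0.033 to 0.30 for H2-K1, -0.56 to 0.21 for H2-Q4, -0.15 to 0.095 for B2m and -0.51 to 1.94 for Tapbp. Between genotypes under imiquimod the range was -0.095 to 1.37 for H2-D1. In the interaction they were -0.46 to 0.998 for H2-D1, -0.41 to 0.37 for Tap1 and -1.26 to 1.19 for Tapbp.

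With the replicate number as a replicate block, 55, 0, 0, 32 and 7 genes were called in the 5 comparisons (wild type, deficient, sham, imiquimod and interaction) and 1, 0, 0, 3 and 0 members, so no member's call changed. The numbers were not taken to pair the samples, because the labels do not say what a shared number means. Same-numbered libraries correlated at -0.0098 to 0.061 over 18 pairs (median 0.016), 0 of them over 0.1. Different-numbered libraries correlated at -0.064 to 0.037 over 36 pairs (median -0.0039). Libraries correlated best with their own number in 19 of 36 cases, each a choice among 3 libraries, so a weak pairing is not excluded.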
